A study of Mus musculus with 6 samples.

Results

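The proteasome and immunoproteasome genes described here are the protein-coding genes whose symbols start with Psma, Psmb, Psmc, Psmd or Psme and a digit. They numbered 45 of the 21668 protein-coding genes on the 19 autosomes and X in the GENCODE annotation of mm10 used here. The rule reads symbols only and used no measured value. H3K27ac, the acetylation of histone H3 that marks active promoters and enhancers, was mapped by HT-ChIPmentation, in which antibody-bound chromatin is tagmented on the beads. The cells were alveolar macrophages (AMs), which clear surfactant and particles from the airspace, taken by bronchoalveolar lavage from wild-type 9-week-old C57BL/6J mice and sorted by flow cytometry. All libraries shared this genotype and age, and no treatment is named. They differed in the antibody, with 1 library from an Active Motif antibody and 2 replicates from a Cell Signaling antibody. Each library has 1 list of peaks, the intervals enriched over an input control.

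The proteasome is the barrel-shaped protease that degrades ubiquitin-tagged proteins. Its 20S core is built from rings of alpha subunits (Psma) and beta subunits (Psmb), and a 19S cap of ATPases (Psmc) and non-ATPase subunits (Psmd) recognizes, unfolds and feeds in the substrate. Interferon gamma induces 3 replacement catalytic subunits. Psmb8 (β5i), Psmb9 (β1i) and Psmb10 (β2i) take the places of Psmb5, Psmb6 and Psmb7, and the resulting immunoproteasome yields many of the peptides shown on MHC class I. Interferon gamma also induces Psme1 and Psme2, the subunits of the PA28 activator ring. Assembly chaperones with Psmd symbols, such as Psmd9, were kept in the non-ATPase group. A further 4 genes taken in by the symbol rule are not part of the proteasome of most somatic cells. They are Psma8, the testis alpha subunit, Psmb11, the thymus beta subunit, Psmc3ip, a factor of meiotic recombination that is not a subunit, and Psme2b, a mouse copy of Psme2.

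The peak lists held 36364 peaks in the Active Motif library, 56175 in Cell Signaling replicate 1 and 49139 in replicate 2, and covered 26.1, 45.8 and 59.8 Mb in that order of libraries. The lists hold no read counts, so the read depth behind a peak is not known here and a longer list can hold weaker sites. Antibody, run, sonication and depth cannot be told apart between the libraries. All 12 alveolar macrophage marker genes examined had a promoter peak in all 3 libraries, and none of 8 T and NK cell markers had one in any. The markers of airway and alveolar epithelium had none in the Active Motif library, 4 of 8 in Cell Signaling replicate 1 and 2 of 8 in replicate 2. Cdh1, counted in both Cell Signaling replicates, is also among the core AM genes named by the study. Only 1 of 5 B cell markers had one in each Cell Signaling replicate and none in the Active Motif library, and for neutrophil markers the counts were 1 of 6 in the Active Motif library and 2 of 6 in each Cell Signaling replicate. The part of other cells in the peaks below was not tested.

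The promoters of the proteasome genes were acetylated almost without exception. A promoter peak is a peak that touches the 1 kb on either side of any transcription start site (TSS) of the gene. In all 3 libraries 42 of the 45 genes had one (93.3%), against 40.8% of all protein-coding genes. By library, 42 genes had a promoter peak with the Active Motif antibody, where 40.9% of all genes had one. In Cell Signaling replicate 1 the count was 43, with 47.8% of all genes, and in replicate 2 it was 42, with 48.8% of all genes. In both replicates together 42 genes had one, against 46.5% of all genes. The share was 5 of 5 for Psmb8, Psmb9, Psmb10, Psme1 and Psme2 and 37 of 40 for the other members. With the 4 genes named above set aside, all 36 other members had a promoter peak in every library. No test was made on these counts because genes are not replicates of a sample.

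The 3 genes without a promoter peak in every library were all among those 4. Psmb11 and Psme2b had no peak and no acetylated base within 5 kb in any library. Psma8 had 1 peak of 82 bases in Cell Signaling replicate 1, with a fold enrichment over input of 5.0, and none in the Active Motif library or in replicate 2. The fourth, Psmc3ip, was marked in all libraries, with 374 acetylated bases in the Active Motif library, 795 in Cell Signaling replicate 1 and 1020 in replicate 2. Reads were filtered on mapping quality before peak calling, which can remove reads from near-identical copies such as Psme2b and Psme2; its part in the missing Psme2b peak was not tested.

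The interferon-inducible genes carried a promoter peak in AMs of untreated mice, with a median peak height below that of the other members in 2 of the 3 libraries. Their extent is given below as acetylated bases, the bases under peaks within 5 kb on either side of the TSS with the most. Height is given as the fold enrichment over input of the strongest promoter peak. The peaks come from a bulk population, in which a mark on fewer cells and a weaker mark on all cells cannot be told apart.

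Psmb8, on chromosome 17, had 437 acetylated bases in the Active Motif library, 1221 in Cell Signaling replicate 1 and 1405 in replicate 2. Its strongest promoter peak had a fold enrichment of 5.59, 10.3 and 12.1 in those libraries, the lowest of the 5 genes in each. The peak of replicate 2 lay at chr17:34197630-34199034 (mm10), across the start of the gene, with its summit in the UTR. With the Active Motif antibody the same stretch was split into 3 short peaks.

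Psmb9 had 1012, 1298 and 1889 acetylated bases in the Active Motif library, Cell Signaling replicate 1 and replicate 2, all in 1 peak. Its fold enrichment was 12.6, 19.6 and 29.95 in the same order. The peak of replicate 2 lay at chr17:34186596-34188484, with the summit in the UTR of Psmb9 in all 3 libraries. It also covered the start of Tap1, the peptide transporter subunit encoded on the opposite strand, whose nearest TSS is 38 bp away, so the bases cannot be given to one gene or the other.

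Psmb10, on chromosome 8, had 827, 1416 and 1656 acetylated bases in the same 3 libraries, with a fold enrichment of 5.98, 20.4 and 32.1. Its peaks lay almost wholly downstream of the TSS, at chr8:105936930-105938585 in replicate 2, with the summit in an intron in all 3 libraries. The share of acetylated bases downstream of the TSS was 100% in the Active Motif library, 94.8% in Cell Signaling replicate 1 and 91.4% in replicate 2.

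Psme1 and Psme2 encode the alpha and beta subunits of PA28 and lie on chromosome 14. Psme1 had 929, 1350 and 1768 acetylated bases in the Active Motif library, Cell Signaling replicate 1 and replicate 2, with a fold enrichment of 6.40, 11.9 and 33.1. Psme2 had 2062, 2565 and 3358, with 27.3, 50.4 and 37.3. Psme2 was thus the highest of the 5 genes on both scales in each library, and its fold enrichment was above every other member's in the Active Motif library and in replicate 1. Its peak, at chr14:55589905-55592550 in replicate 2, had its summit upstream of the gene and also covered the start of Rnf31, which encodes the catalytic subunit of the linear ubiquitin ligase and starts 607 bp away on the opposite strand.

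**Figure D1:**
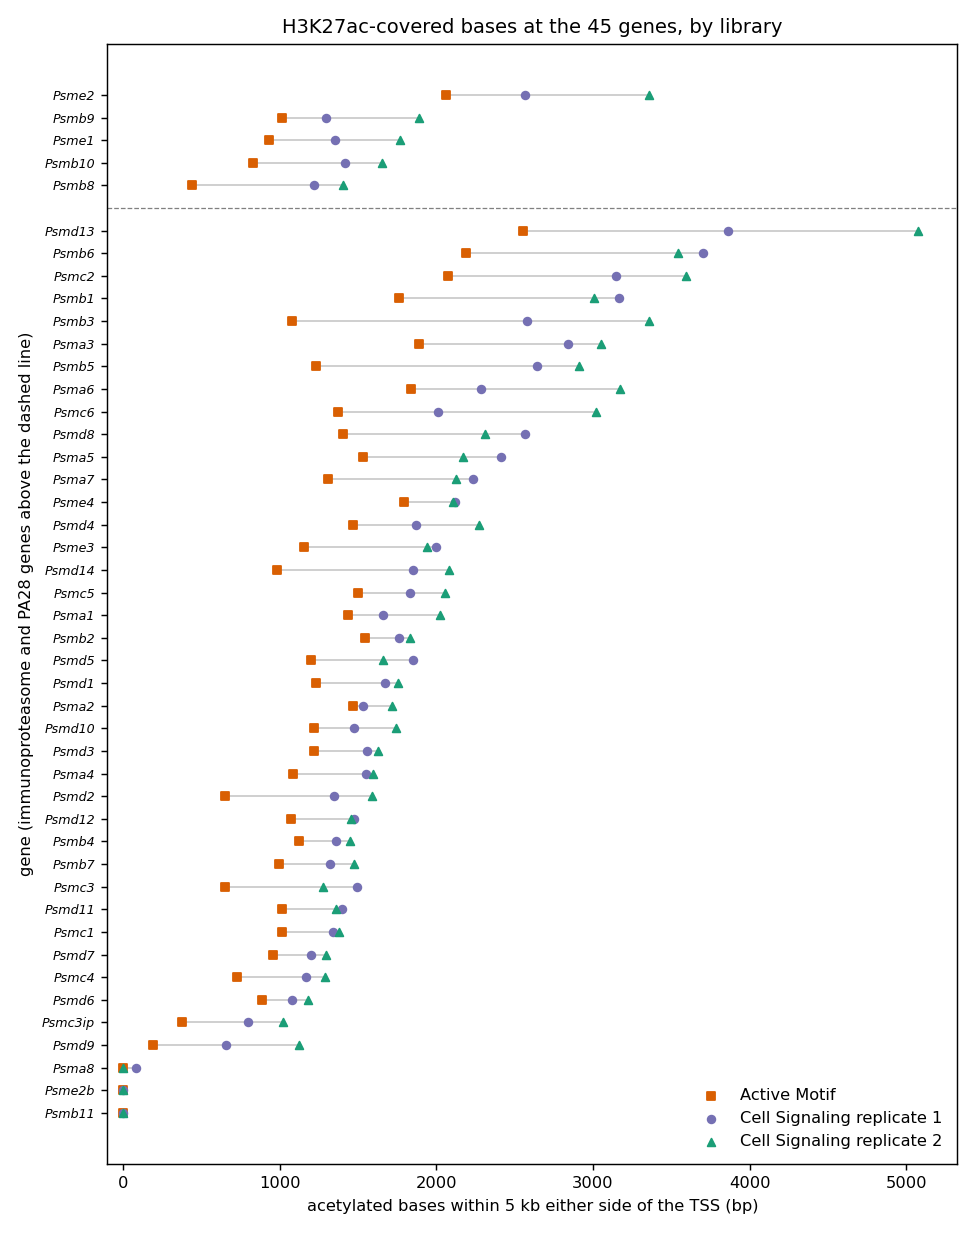
Acetylated bases (bp) within 5 kb on either side of the TSS for the 45 genes, with Psmb8, Psmb9, Psmb10, Psme1 and Psme2 above the dashed line and the other members below it, each block ordered by the mean of the Cell Signaling replicates. Squares are the Active Motif library, circles Cell Signaling replicate 1 and triangles replicate 2, joined by a grey line. Psmd13 reaches 5073 bases in replicate 2, and Psma8, Psme2b and Psmb11 lie at or near 0.

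As groups, the interferon-inducible genes and the other members differed by less than the replicates did. The median over Psmb8, Psmb9, Psmb10, Psme1 and Psme2 was 1559 acetylated bases (mean of the Cell Signaling replicates), against 1736 over the other 40 members. The difference was -177 bases with an SD of 237 between the replicates (n = 2). In Cell Signaling replicate 1 the medians were 1350 and 1667.5, and in replicate 2 they were 1768 and 1751, so the difference was -317.5 in replicate 1 and 17.0 in replicate 2. In the Active Motif library the medians were 929 and 1208.5. With windows of 10 kb the median of the 5 genes was 2859 bases and that of the other members 1960, and the wider windows took in peaks at neighbouring genes, as described below.

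Peak height gave the same order of the groups as extent in each library. The median fold enrichment was 6.40 for the 5 interferon-inducible genes and 11.4 for the 37 other members with a promoter peak in the Active Motif library. It was 19.6 and 25.9 (38 other members) in Cell Signaling replicate 1, and 32.1 and 31.9 (37 other members) in replicate 2. Because the median of the 5 genes lay below that of the others in 2 libraries and level with it in the third, no order of the groups holds in every library.

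**Figure D2:**
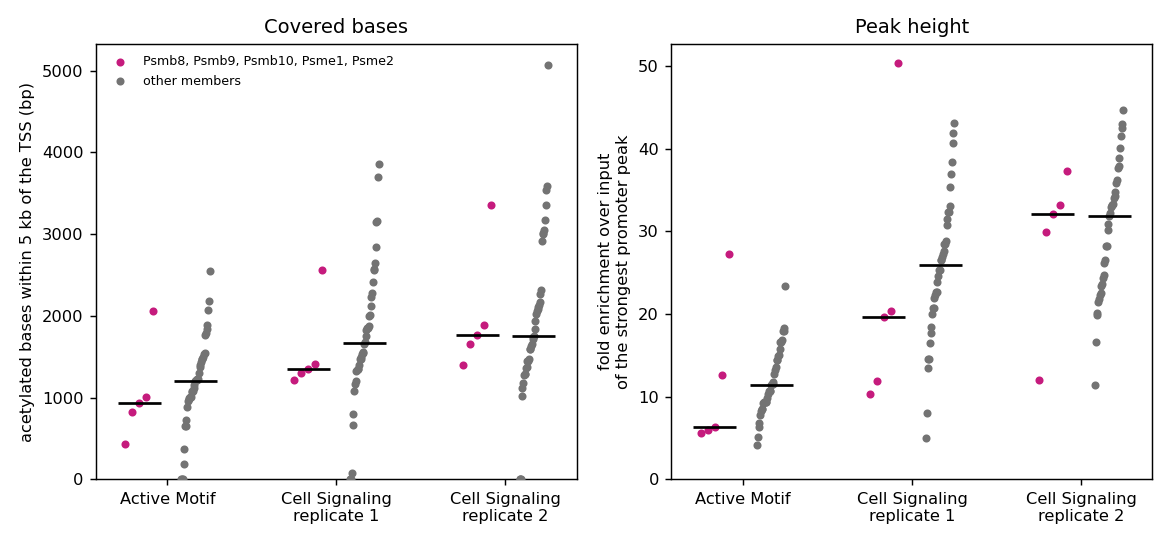
Acetylated bases within 5 kb of the TSS (left, in bp) and fold enrichment over input of the strongest promoter peak (right) in each library. Points are genes, with Psmb8, Psmb9, Psmb10, Psme1 and Psme2 in pink and the other members in grey, and black bars are medians. Genes with no promoter peak are at 0 on the left if no base was covered and are left out on the right. The median fold of the 5 genes is 6.40 against 11.4 with the Active Motif antibody, and 32.1 against 31.9 in Cell Signaling replicate 2.

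Each inducible catalytic subunit can be set beside the constitutive subunit that it replaces. Psmb8 had fewer acetylated bases than Psmb5 in every library, with 437 against 1233, 1221 against 2643 and 1405 against 2913 in the Active Motif library, Cell Signaling replicate 1 and replicate 2. Psmb9 also had fewer than Psmb6, with 1012 against 2187, 1298 against 3704 and 1889 against 3541. The Psmb6 counts include a separate region at chr11:70527579-70529729, whose midpoint is 3268 bp from the TSS. The strongest promoter peak alone was 1012, 1298 and 1889 bases wide at Psmb9 and 1046, 1349 and 1594 at Psmb6. Psmb9 thus had the wider promoter peak in replicate 2 and a slightly narrower one in the others. For Psmb10 and Psmb7 the order changed between antibodies, with 827 against 994 in the Active Motif library, 1416 against 1322 in Cell Signaling replicate 1 and 1656 against 1476 in replicate 2. Fold enrichment was lower at the inducible gene in all 3 pairs and all 3 libraries. The nearest case was Psmb10 against Psmb7 in replicate 2, with 32.1 and 33.3, and the widest in that library was Psmb8 against Psmb5, with 12.1 and 44.7. Psme3, which encodes the nuclear activator PA28 gamma, had 1157, 1996 and 1939 bases, more than Psme1 and fewer than Psme2 in each library.

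Among the constitutive genes, grouped by symbol, the 20S core genes had the most acetylated bases. The median over the 7 beta subunit genes was 2576 in Cell Signaling replicate 1 and 2913 in replicate 2. The 7 alpha subunit genes had medians of 2231 and 2128, the 6 ATPase genes 1662.5 and 1716, and the 14 non-ATPase genes 1518 and 1644 in the same replicates. This order held in both replicates, while in the Active Motif library the alpha subunit genes were highest of these groups, with a median of 1468. The medians there were 1233 for the beta, 1194 for the ATPase and 1135 for the non-ATPase genes. The activator genes Psme3 and Psme4, outside these groups, had a median of 1475 in the Active Motif library. Their medians were 2058 in Cell Signaling replicate 1 and 2021.5 in replicate 2. The ATPase median of replicate 1 (1662.5) and the non-ATPase median of replicate 2 (1644) were close, so these neighbouring groups were not separated beyond the replicates. In replicate 2 the counts at Psmb6, Psma3 and Psma6 also take in all or part of distal regions, as defined below. The strongest promoter peaks of the beta, alpha, ATPase and non-ATPase genes had median widths of 1760, 1660, 1419.5 and 1405 bases in replicate 1. Those widths were 1834, 1822, 1440 and 1644 in replicate 2, and 994, 883, 872.5 and 949.5 in the Active Motif library.

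Single genes spread more widely than the groups. Psmd13, a non-ATPase subunit of the 19S lid, had the most acetylated bases of all 45 genes in each library, with 2552 in the Active Motif library, 3862 in Cell Signaling replicate 1 and 5073 in replicate 2. Psmd9, a chaperone of 19S base assembly, had the fewest of the non-ATPase group, with 189, 660 and 1123. Psmd13 was above Psmd9 in every library. Of the Psmd13 bases, 42.3%, 30.5% and 22.9% lay downstream of its TSS, in the same order of libraries. Its promoter peak is shared with Sirt3, so the bases cannot be given to Psmd13 alone. In the other groups the extremes were ranked by the mean of the Cell Signaling replicates, and some changed places in a single library. In the beta group Psmb6 had the most (2187, 3704 and 3541) and Psmb7 the fewest (994, 1322 and 1476), although Psmb4 was lower in replicate 2, with 1451. The Psmb6 counts include the separate region named above. In the alpha group Psma3 had the most (1892, 2840 and 3049), with Psma6 above it in replicate 2 (3171). That Psma6 count lay wholly downstream of another annotated TSS, at chr12:55384222. It did not include the strongest Psma6 promoter peak, at chr12:55397925-55400837. Psma4 had the fewest (1082, 1548 and 1596), with Psma2 below it in replicate 1 (1534).

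Of the ATPases, Psmc2 had the most acetylated bases (2077, 3144 and 3591). Psmc4 had the fewest by the same mean (724, 1168 and 1290), but Psmc3 was lower in the Active Motif library (652) and in replicate 2 (1274). Psme4, which encodes the activator PA200, had 1793, 2120 and 2104. The Active Motif library was the lowest of the 3 at these genes, while the order of the Cell Signaling replicates varied. The Active Motif library had fewer acetylated bases than both Cell Signaling replicates at all 5 interferon-inducible genes and all 37 other members with a promoter peak in every library, and at 98.2% of all such protein-coding genes. Replicate 2 exceeded replicate 1 at 5 of the 5 interferon-inducible genes and at 26 of the 37 others, against 84.2% of all protein-coding genes marked in every library.

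Among acetylated promoters, those of the proteasome genes had high peaks in the Cell Signaling replicates but not in the Active Motif library, and were not wide in any library. In Cell Signaling replicate 1 the median fold enrichment of the 43 genes with a promoter peak was 25.4, against 19.2 over all protein-coding genes with one, and in replicate 2 it was 31.97 (42 genes) against 26.9. With the Active Motif antibody the medians were 11.0 and 11.1. The median of acetylated bases lay below that of all marked genes in each library, with 1208.5 against 1274 in the Active Motif library, 1660 against 1750.5 in Cell Signaling replicate 1 and 1801 against 2013 in replicate 2. On a percentile scale over all marked genes of the library, the median member stood at 49.5, 63.1 and 62.9 for fold and at 46.8, 46.5 and 42.9 for bases, in the same order of libraries.

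The acetylation of the members lay in a short stretch about the TSS. At 1 kb upstream of the TSS, 20% of the 5 interferon-inducible genes, 15% of the other members and 39.3% of all genes with a promoter peak in every library lay under a peak in Cell Signaling replicate 2. The same shares were 0%, 7.5% and 34.4% in replicate 1, and 0%, 0% and 19.3% in the Active Motif library. At 1 kb downstream they were 100%, 42.5% and 53.0% in replicate 2, and 40%, 45% and 46.7% in replicate 1. Most acetylated bases lay downstream of the start at all 5 interferon-inducible genes in every library. Among other members with a promoter peak, this held at 28 of 37 in the Active Motif library. It held at 30 of 38 in Cell Signaling replicate 1 and 25 of 37 in replicate 2. The same share was not computed over all marked genes, so it cannot be called particular to the members. At 1 kb, all genes with a promoter peak in every library also lay under a peak more often downstream than upstream in both replicates.

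**Figure D3:**
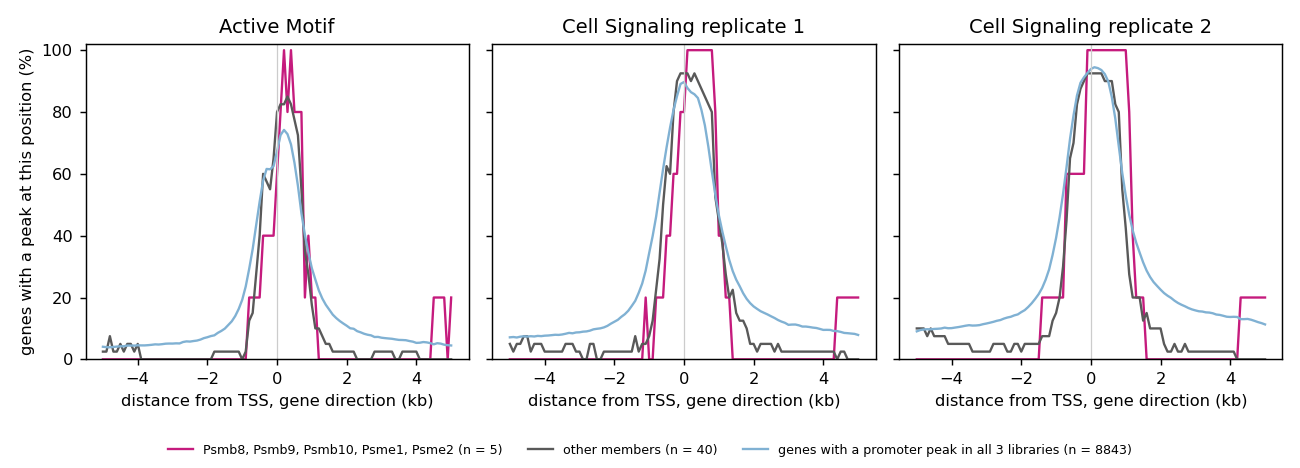
Share of genes (%) with a peak at each position from 5 kb upstream to 5 kb downstream of the TSS with the most acetylated bases, read in the direction of the gene, in the 3 libraries. Pink is Psmb8, Psmb9, Psmb10, Psme1 and Psme2 (n = 5), dark grey the other members (n = 40, of which 3 lack a promoter peak in at least 1 library) and blue all genes with a promoter peak in every library (n = 8843). At 1 kb upstream in Cell Signaling replicate 2 the other members are at 15% and the blue curve at 39.3%.

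Of the 5 inducible genes, all but Psmb10 lie in clusters that share or adjoin acetylated regions. In the MHC class II region of chromosome 17, Psmb9 and Tap1 share 1 promoter peak, Psmb8 starts about 10 kb further on, and Tap2, the other subunit of the peptide transporter, follows. Tap2 had 306, 1272 and 1773 acetylated bases in the Active Motif library, Cell Signaling replicate 1 and replicate 2, and a fold enrichment of 5.99, 11.9 and 16.1. On chromosome 14, a peak lay between Psme1 and Psme2, from 6.53 to 8.44 kb past the Psme1 TSS in replicate 2, at the start of Emc9, a subunit of the ER membrane protein complex. In replicate 2, windows of 10 kb gave Psme1 3680 bases, against 1768 with 5 kb, and Psmb8 3365, against 1405. Psmb10 had 1656 bases with either window.

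**Figure D4:**
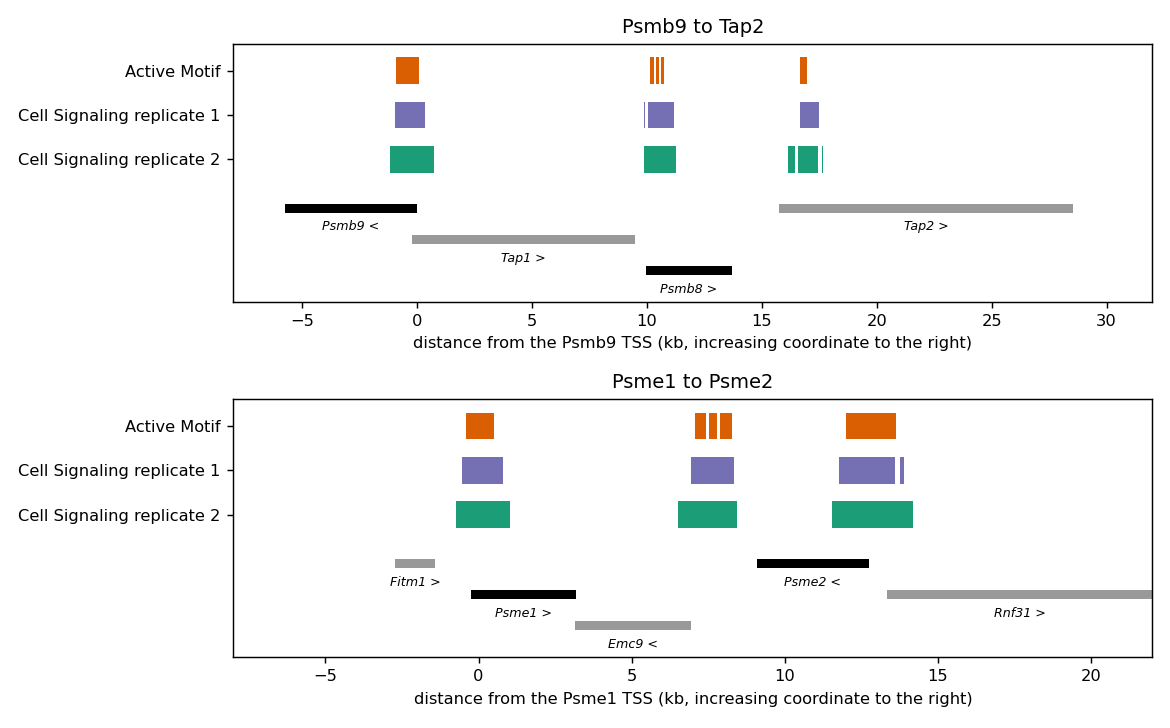
Peaks in the 3 libraries (coloured boxes) along the Psmb9 to Tap2 locus (top) and the Psme1 to Psme2 locus (bottom), by distance in kb from the TSS of Psmb9 and of Psme1. Bars below are protein-coding genes, black for the interferon-inducible members and grey for others, with > or < giving the strand. One peak spans the starts of Psmb9 and Tap1, and the peak between Psme1 and Psme2 runs from 6.53 to 8.44 kb in Cell Signaling replicate 2.

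Shared promoters were found at about the same share of the members as of acetylated genes at large. Of the 45 genes, 10 had a TSS of another protein-coding gene on the opposite strand within 1 kb (22.2%), against 10.6% of all protein-coding genes and 21.6% of those with a promoter peak in every library. They were 2 of the 5 interferon-inducible genes, Psmb9 with Tap1 and Psme2 with Rnf31, and 8 of the other 40. Those were Psma2 with the mitochondrial ribosomal gene Mrpl32, Psma4 with AY074887, Psma7 with Ss18l1, Psmb1 with Tbp, Psmc2 with the chaperone gene Dnajc2, Psmc5 with Ftsj3, Psmd10 with the autophagy gene Atg4a and Psmd13 with the mitochondrial deacetylase gene Sirt3. Tbp encodes the TATA-binding protein, and Ftsj3 an RNA methyltransferase of ribosome biogenesis. For each pair, in all 3 libraries, at least 1 peak touched the 1 kb around a start of both genes. Such a peak need not cover both starts. At Psmc2 in the Active Motif library no acetylated base lay upstream of the TSS (chr5:21785283). The strongest promoter peak there was at chr5:21786116-21787542. With every peak that reached the promoter of another gene left out, the median was 1313 bases over the 5 inducible genes and 1433 over the other members.

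Members had fewer distal regions per gene than all protein-coding genes, while the share of genes with any was similar. A distal region is here a region called in both Cell Signaling replicates whose midpoint is more than 3 kb from any TSS, given to the gene with the nearest TSS. None of the 5 interferon-inducible genes had one. Of the other 40 members, 11 had 14 such regions in all (27.5% of genes), against 27.2% of all protein-coding genes. The mean number per gene was 0.35 for the other members and 0.861 for all protein-coding genes. The region with the highest fold in replicate 1 was 16434 bp from a TSS of Psma1, at chr7:114290934-114294170, with a fold of 63.8 and 46.9 in Cell Signaling replicates 1 and 2 and 12.7 in the Active Motif library. The region with the highest fold in the Active Motif library and in replicate 2 was 5567 bp from a TSS of Psma3, at chr12:70967679-70970430, with a fold of 42.7 and 49.1 in the replicates and 22.2 in the Active Motif library.

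Sequences of the promoters are shown to set the marked windows beside the letters that transcription factors of interferon and proteasome stress responses are known to bind. RefSeq windows on GRCm38.p6, the assembly of mm10, ran from 250 bases before to 50 after a gene's start and matched 38 of the 45 genes. Psma8, Psmb1, Psmb2, Psmb7, Psmc3, Psmd3 and Psmd7 were not matched. Both strands were searched for 7 motifs and each count is set beside the share of all 32851 windows. The interferon-stimulated response element, bound by IRF factors, was spelled GAAANNGAAA and held by 3.44% of all windows. It was found in Psme1 of the 5 inducible genes and in Psmb3, Psmd4 and Psmd9. The gamma-activated site, an element of promoters that respond to interferon gamma, was spelled TTCNNNGAA and held by 8.3% of all windows. It was found in Psmb8 and in Psmd2. Each stretch below is the motif in capitals with 10 bases on either side, read in the direction of the gene, with its mm10 interval.
Psme1, chr14:55578493-55578522, plus strand: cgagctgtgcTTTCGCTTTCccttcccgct
Psmb3, chr11:97703261-97703290, plus strand: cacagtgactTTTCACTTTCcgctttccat
Psmd4, chr3:95042675-95042704, minus strand: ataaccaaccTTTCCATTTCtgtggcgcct
Psmd9, chr5:123228021-123228050, plus strand: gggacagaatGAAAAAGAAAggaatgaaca
Psmb8, chr17:34198088-34198116, plus strand: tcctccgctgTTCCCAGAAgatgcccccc
Psmd2, chr16:20651646-20651674, plus strand: gcgcgtggccTTCTGGGAAaaggggcggt

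The Psme1 match lay 9 bases after the RefSeq start and under a peak in all 3 libraries. The Psmb8 match lay 97 bases before the RefSeq start and under a peak in both Cell Signaling replicates but not in the Active Motif library. That RefSeq start is 405 bases downstream of the TSS used above. The Psmb8 window and its match thus lie inside the gene, downstream of that TSS. Psmb9, Psmb10 and Psme2 held neither motif in these windows. The Psmb9 window lies wholly inside the gene, its RefSeq start being 434 bases from the TSS used above, so it does not cover that TSS. It does lie under the peak shared with Tap1 in all 3 libraries and takes in the annotated 5′ end of the Tap1 gene.

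The antioxidant response element, bound by Nfe2l1 and Nfe2l2, was spelled TGACNNNGC. Nfe2l1 is the factor known to raise proteasome gene transcription when proteasome activity is blocked. The motif was found in 0 of the 5 interferon-inducible genes and in 6 of the 33 other members with a window, against 12.4% of all windows. These were Psmb5, Psmb6, Psmc6, Psmd9, Psmd12 and Psme4, and the 4 matches nearest to a start are shown with the same use of capitals.
Psme4, chr11:30771758-30771786, plus strand: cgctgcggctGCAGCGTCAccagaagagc
Psmb6, chr11:70525338-70525366, plus strand: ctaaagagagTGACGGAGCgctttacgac
Psmd9, chr5:123228149-123228177, plus strand: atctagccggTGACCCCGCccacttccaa
Psmb5, chr14:54618024-54618052, minus strand: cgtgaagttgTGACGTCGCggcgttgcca

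Of these 4, the stretches of Psme4, Psmb6 and Psmb5 lay under a peak in all 3 libraries, and that of Psmd9 in both Cell Signaling replicates only. The Psmd9 match overlaps a GC box. The other motifs searched are those of housekeeping promoters, and 5 inducible genes are too few to compare them. The ETS site CCGGAAG was held by 0 of the 5 inducible genes and 13 of the 33 others (8.86% of all windows), and the nuclear respiratory factor 1 site GCGCNTGCGC by 0 of 5 and 6 of 33 (4.6%). The GC box GGGCGG was held by 22 of the 38 genes, 3 of them inducible (35.7% of all windows), and CCAAT by 15, of them 1 inducible (37.4%). A match describes the letters of a window and does not show that a factor binds there.

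The number of CpG dinucleotides in the window separates CpG-island promoters from others. The median was 12 for the 5 interferon-inducible genes (3 to 19), 20 for the 33 other members (2 to 41), 8 for all genes with a window and 23 for protein-coding genes with a promoter peak in every library. For genes with several windows the one with the most CpGs was taken. Psmb10 had the fewest CpGs of the members that had both a matched window and a promoter peak. The 120 bases before the start of Psmb10 and, for contrast, of the ATPase gene Psmc4 are shown with each CpG in capitals.
Psmb10, chr8:105938445-105938564, minus strand: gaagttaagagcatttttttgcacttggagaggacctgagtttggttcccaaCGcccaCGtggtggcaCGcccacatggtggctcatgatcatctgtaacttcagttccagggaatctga
Psmc4, chr7:28050102-28050221, minus strand: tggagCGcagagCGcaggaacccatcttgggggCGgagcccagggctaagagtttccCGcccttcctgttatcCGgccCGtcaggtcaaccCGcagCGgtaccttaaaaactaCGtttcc

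The Psmb10 stretch held 3 CpGs and that of Psmc4 held 9. Psmb10 had more acetylated bases than Psmc4 in each library. The values were 827 against 724 in the Active Motif library, 1416 against 1168 in Cell Signaling replicate 1 and 1656 against 1290 in replicate 2. Psmc4 had the fewest of the ATPases by the mean of the replicates, and most bases of Psmb10 lay downstream of the stretch shown. A single pair does not show how CpG content and acetylation are related.

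Most genes that work with the proteasome were marked too. Of 17 assembly factors and partners found in the annotation, of 18 listed, 15 had a promoter peak in all 3 libraries, against 40.8% of all protein-coding genes. Their median was 1862.5 acetylated bases over the 17 genes (mean of the Cell Signaling replicates). Pomp, the maturation factor of the 20S core, had 1325, 1661 and 1829 bases in the Active Motif library, Cell Signaling replicate 1 and replicate 2. Nfe2l1 had 2814, 4295 and 6536, and Nfe2l2, the related factor of the oxidative stress response, had 5106, 6276 and 7361. The 2 exceptions were Psmf1, which encodes the inhibitor PI31 and had 0, 661 and 1027 bases, and Nfe2l3, with no acetylated base in any library. All 16 genes of ubiquitin supply and delivery had a promoter peak in every library, against the same 40.8%, with a median of 2343 bases.

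The MHC class I loading genes, which use the peptides of the immunoproteasome, were marked in 13 of 14 cases in all 3 libraries. The share of all protein-coding genes was 40.8%. The median over the list was 2566.5 acetylated bases. One of these genes is Tap1, whose promoter peak is the one shared with Psmb9. B2m, the light chain of MHC class I, had 3537, 4951 and 6409 bases in the Active Motif library, Cell Signaling replicate 1 and replicate 2, and Tapbp, which encodes tapasin, had 2685, 2998 and 3714. Irf1, a transcription factor of the interferon response, had 1079, 1847 and 5295 bases and was thus uneven between the Cell Signaling replicates. The exception was Nlrc5, the transactivator of MHC class I genes, which had no acetylated base in the Active Motif library, 225 in Cell Signaling replicate 1 and 692 in replicate 2.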

How the data were processed

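H3K27ac was measured in sorted AMs by HT-ChIPmentation, in 1 library with an Active Motif antibody and 2 with a Cell Signaling antibody, each with an input. The methods of the study describe adapter trimming (Cutadapt), alignment to mm10 (Bowtie2), duplicate removal (Picard), a mapping quality filter above 30 (samtools) and peak calling with MACS3 against input at a q-value of 0.05. The submitters' processing notes also name CASAVA and, for the Cell Signaling libraries, bcl2fastq 2.20.0.422. The authors deposited 1 peak list per library, holding for each peak a position, a score derived from the q-value, a fold enrichment (a ratio), −log10 p- and q-values and a summit offset. Inputs entered only through the peak calling. More than 1 sonicator is named, without the libraries each was used for. Separate animals are not stated for the replicates, whose spread may therefore be technical.

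Peaks were placed on the 20 chromosomes used here against GENCODE vM21 basic protein-coding transcripts with Python 3.11.15, numpy 2.4.6 and pandas 2.3.3. An overlap of 1 bp counted. Interval functions were tested on simulated data. No test was made: genes are not replicates, and the Active Motif group is 1 library. Alternatives changed the q threshold, the number of peaks, the windows, the TSS set, the members and the libraries. The members, lists and motifs were chosen with earlier results of these data known. Genes were named by rule: the 5 interferon-inducible genes and their counterparts, members lacking a promoter peak, the extremes of each role group, genes sharing a peak, exceptions within a list and a fixed set of partners. Emc9, Psmd4, Psmb3, Psmb4, Psmc3, Psmd2, Psma1 and Psma6 were named after their values or matches were seen. Some named items are not reported here. Promoter sequences are from RefSeq on GRCm38.p6.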

Additional observations from a re-analysis of the deposited data

How the results depend on the processing

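Counts of genes with a promoter peak stayed within 1.5 times of those given under every alternative tried, at 39 to 42 for all 3 libraries, 39 to 42 for the Active Motif library and 39 to 43 for both Cell Signaling replicates, and at 5 of 5 interferon-inducible genes throughout. The median of acetylated bases over the 5 inducible genes, 1559, was 2859 with windows of 10 kb and 929 in the Active Motif library. The median over the other members, 1736, was 1819.5 with the 5′ end of the gene only and again without Psma8, Psmb11, Psmc3ip and Psme2b, 1617.75 with windows of 2 kb, 1960 with 10 kb, 1208.5 in the Active Motif library and 1433 without peaks shared with another gene. The difference of the medians, -177, was 899 with windows of 10 kb. Leaving out either Cell Signaling replicate gave medians of 1350 to 1768 for the inducible genes and 1667.5 to 1751 for the other members. The difference was -317.5 without replicate 2 and 17.0 without replicate 1, so its sign differed between the replicates. Under the other alternatives the difference lay between -279.5, in the Active Motif library, and -58.8. No paired test was made, since genes are not replicates and the Active Motif group is 1 library. The inputs have no peak lists and entered only through the peak calling. Read depth was not known, so an absent peak does not show absent acetylation.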
